A study of Mus musculus with 34 samples.

Results

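Astrocytes isolated from the cortex of male mice at 3 months (3m, 5 libraries) were compared with astrocytes isolated at postnatal day 60 (P60, 3 libraries). These were the 8 libraries of 34 whose labels gave one of those ages, and no measured value entered their choice. All mice were wild type, with no further allele, agent or treatment named, and the strain was not given. The series covers 9 ages from postnatal day 7 (P7) to 18 months, and the cells were obtained by magnetic isolation, a bulk preparation that can carry RNA of other brain cells. Polyadenylated RNA was converted to cDNA with a low-input template-switching kit and sequenced, and the deposited values are TPM, transcripts per a fixed total, each gene's share of a library. Since TPM hold no read counts, sequencing depth is unknown. The labels do not say whether each library came from its own animal, so p-values measure only the spread between libraries.

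Astrocytes of the adult cortex take up glutamate and potassium, supply neurons with lactate and cholesterol, and anchor the water channel aquaporin 4 at blood vessels. They arise from dividing glial progenitors, and in the mouse cortex most of their division takes place in the first postnatal weeks. A dividing cell copies its DNA with genes driven by E2F factors, and then makes a later set of mitotic genes that are held off in resting cells by the DREAM complex and switched on by B-MYB and FOXM1. Cells that leave the cycle silence both sets.

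Of the 37 gene lists examined, mitosis and cytokinesis had the highest share of members called. Of its 50 genes, 45 were higher at 3m, where 8.26% of all genes tested were, and the mitotic kinases Cdk1 and Aurkb stood 5.68-fold and 5.49-fold above P60. Nrep and tenascin C (Tnc), genes of the developing nervous system, were 7.28-fold and 6.85-fold higher. In the other direction Etnppl, an astrocyte-enriched lyase of phosphoethanolamine, was 20.1-fold lower at 3m, and the neurotensin receptor Ntsr2 and the secreted protein Lgi1 were 2.08-fold and 5.42-fold lower. Folds given with TPM are ratios of mean TPM. Means are given ± SD over the 5 libraries of 3m and the 3 of P60, and log2 fold changes ± SE.

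Changes were tested on log2(TPM + 1), a scale that understates the change of low genes, with limma fitted to all 34 libraries. Of 14590 genes tested, 1487 passed, with a Benjamini-Hochberg adjusted p under 0.05 (10.2%). Of these, 1205 were higher at 3m (8.26% of the genes tested) and 282 were lower (1.93%). The counts of called members given below for gene lists stand beside these shares. The libraries of the 2 ages did not overlap in 2983 genes that were higher (20.4%) and 546 that were lower (3.74%). The split between directions depended on the scaling. The median log2 fold change of all genes was 0.12 as deposited and -0.03 after median-of-ratios rescaling, which gave 660 calls higher and 689 lower, with 48.9% of calls higher against 81.0% as deposited. Quantile normalization gave 861 higher and 660 lower, with 56.6% higher. The 50 most abundant genes held 25.1% to 28.9% of all TPM at 3m and 30.5% to 31.8% at P60. TPM sum to the same total in every library, so a larger share of these leaves less for the rest. The part of this in the split between directions was not tested.

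The 2 ages also differed in how many genes were listed at 0 TPM. The 3m libraries had 1492, 1656, 1461, 1331 and 1155 genes at 0, against 3130, 2854 and 2951 in the P60 libraries. The groups did not overlap, with means of 1419 ± 188 at 3m and 2978 ± 140 at P60 (exact two-sided permutation p = 0.0179, the smallest that 56 arrangements allow). The 6m libraries, with 1446 ± 197 genes at 0, were like those of 3m in this respect, and P28, with 3317 ± 165, lay nearer to P60. A gene counted as 0 at P60 may have been below detection, and a difference in depth, in library preparation or in quantification between the ages cannot be told apart from age with these files. There were 242 genes at 0 in all P60 libraries and above 0 in all 3m libraries, and 4 with the reverse pattern. Of the called genes, 1202 of the 1205 higher and 279 of the 282 lower were above 0 in all 8 libraries. So were 16301 of the 20613 genes with values. The filter on low values favours such genes, so these counts do not set the calls apart from the difference in genes at 0. With the log2 number of genes at 0 as a term in the model, 129 genes were called higher and 249 lower. The term does not overlap between the 2 ages, and its slope comes from differences between libraries of the same age. Of the squared deviations within ages, 53.7% came from 12m replicate 3, which had 1615 genes at 0, against 4556 and 4532 in the other 12m libraries. Without that library, a fit chosen after the data were seen, the term left 2 genes called higher and 3 lower, and the SE of Aurkb was 0.44, against 0.25 with the library. The median log2 fold change of the mitosis list was then 1.31. Calls described as kept or lost with the term are those of the fit of all 34 libraries and depend on that library. Of the 37 gene lists, 28 held a call as deposited, 13 with the term, and 1 with the term and without 12m replicate 3.

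Pearson correlations of log2(TPM + 1) over the genes tested were between 0.968 and 0.989 within 3m and between 0.981 and 0.984 within P60. Within 3m, replicate 4 had the 4 lowest correlations, and without it 792 genes were called higher. Y-linked transcripts were found in every library, Ddx3y at 38.2 ± 3.4 TPM at 3m and 33.6 ± 3.11 TPM at P60. The glutamate transporter gene Slc1a3 averaged 3003 ± 347 TPM at 3m and 2457 ± 64.3 TPM at P60, and Slc1a2, the second transporter, averaged 432 ± 97.9 TPM at 3m and 399 ± 32.6 TPM at P60. Aldh1l1, a folate enzyme used as an astrocyte marker, averaged 224 ± 34.5 TPM at 3m and 194 ± 12.9 TPM at P60. None of these genes was called. All 25 genes of the mature astrocyte list were above 0 in all 8 libraries and passed the filter on low values. Being above 0 in all 8 also held for 16301 of the 20613 genes with values. It held for all 14 oligodendrocyte and all 14 endothelial markers as well. The astrocyte markers were thus detected at both ages, which does not show that other cells were absent.

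Cdk1, the kinase that starts mitosis, had 30.1, 20.9, 23.6, 50.5 and 22.9 TPM at 3m, against 4.69, 4.79 and 6.17 TPM at P60 (log2 fold change 2.23 ± 0.31, adjusted p = 1.99e-05). Every 3m library was above every P60 library by a factor of more than 3, and 3m replicate 4 was the highest. Its partner cyclin B1 (Ccnb1) had 28.5, 23.1, 21.2, 32.4 and 24.9 TPM at 3m, against 6.09, 4.92 and 5.25 TPM at P60 (log2 fold change 2.06 ± 0.27, adjusted p = 1.05e-05). The second B-type cyclin, Ccnb2, had 8.23, 7.79, 9.1, 23.3 and 7.42 TPM at 3m, against 1.64, 1.21 and 2.78 TPM at P60 (log2 fold change 1.98 ± 0.32, adjusted p = 0.00016). Cyclin B1 was evenly high across the 3m libraries, whereas for Ccnb2 replicate 4 stood far above the other 4, which also lay above all of P60.

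Aurkb, the kinase of the chromosomal passenger complex that corrects faulty spindle attachments, had 14.9, 14.9, 19.4, 17.6 and 14.8 TPM at 3m, against 3.36, 2.35 and 3.19 TPM at P60 (log2 fold change 2.13 ± 0.17, adjusted p = 8.51e-10). Its spread within 3m was small, and it had the smallest p of the mitosis list. Borealin (Cdca8), a subunit of the same complex, averaged 18.2 ± 3.12 TPM at 3m and 4.72 ± 0.333 TPM at P60 (log2 fold change 1.74, adjusted p = 2.38e-06). Ube2c, which supplies ubiquitin to the anaphase-promoting complex, had 42.5, 33.3, 32.9, 56.3 and 31.7 TPM at 3m, against 9.33, 6.64 and 8.71 TPM at P60 (log2 fold change 2.11 ± 0.24, adjusted p = 2.19e-06). Top2a, the topoisomerase that untangles sister chromatids, had 10.6, 10.6, 9.24, 14.8 and 9.06 TPM at 3m, against 2.78, 2.04 and 3.12 TPM at P60 (log2 fold change 1.70 ± 0.22, adjusted p = 1.02e-05). For both genes all 3m libraries lay above all P60 libraries. Ki-67 (Mki67), a coat protein of mitotic chromosomes, was low at both ages, at 1.96 ± 0.481 TPM at 3m and 0.344 ± 0.0319 TPM at P60 (log2 fold change 1.12, adjusted p = 9.99e-05). Cks2, a small subunit that binds Cdk1, was singled out after its values were seen and averaged 45.1 ± 7.98 TPM at 3m and 10.8 ± 2.15 TPM at P60 (log2 fold change 1.96, adjusted p = 1.27e-05).

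**Figure D1:**
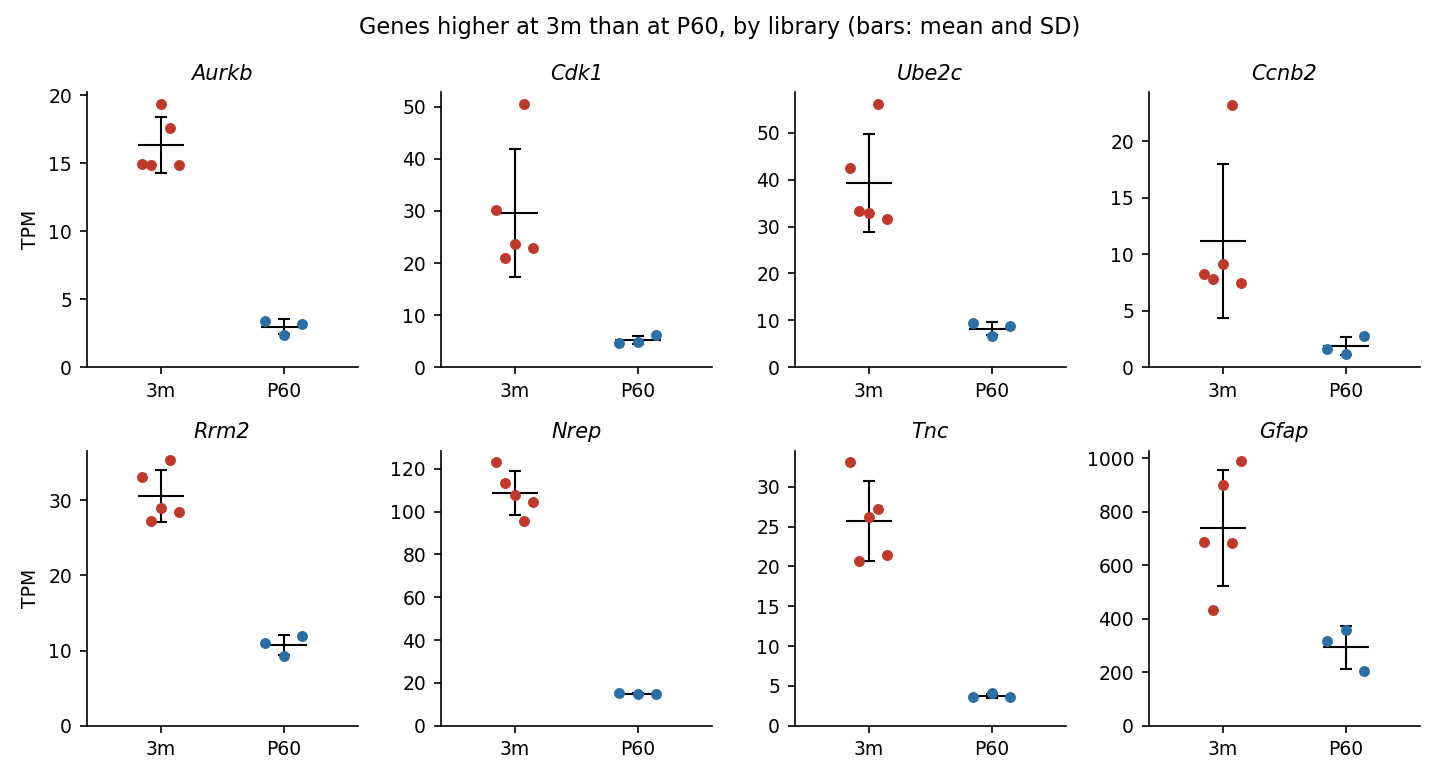
TPM of 8 genes that were higher at 3m, 1 panel per gene, each point 1 library (3m, n = 5, left; P60, n = 3, right), with bars at the mean ± SD. No P60 library reaches the lowest 3m library in any panel. The highest point is 3m replicate 4 for Cdk1, Ube2c, Ccnb2 and Rrm2.

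Of the 50 mitosis genes, all of which were tested, 45 were called higher and 1 lower, against 8.26% and 1.93% of all genes. Their median log2 fold change was 1.356, beside 0.12 for all genes tested. No overlap between ages in the upward direction was found for 46 of the 50, and for 20.4% of all genes tested. The gene called lower was securin (Pttg1), the inhibitor of separase, which had 299, 275, 321, 365 and 282 TPM at 3m, against 394, 373 and 432 TPM at P60 (log2 fold change -0.38 ± 0.10, adjusted p = 0.0154). It was named because it was the exception, after its values were seen, and it was abundant at both ages, unlike the rest of the list. Cdc25c, Incenp, Anln and Iqgap3 were not called. Leaving out any 1 library left 43 to 45 mitosis genes higher, and without P60 replicate 3 none was lower. The term for genes at 0 left 22 higher with a median of 0.95. Aurkb (log2 fold change 1.94, adjusted p = 7.31e-05), Cdk1 (log2 fold change 2.46, adjusted p = 0.00438) and Ube2c (log2 fold change 1.81, adjusted p = 0.00727) were still called with it, whereas Ccnb2 (log2 fold change 1.29, adjusted p = 0.131) was not. Without 12m replicate 3 the term left 1 mitosis gene of the list called, Aurkb (log2 fold change 2.36, adjusted p = 0.0355). Cdk1 (log2 fold change 2.89, adjusted p = 0.255) and Ube2c (log2 fold change 2.83, adjusted p = 0.107) were not called. Cks2, which is not on the list, was also called higher in that fit (log2 fold change 3.57, adjusted p = 0.0339).

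Promoters of mitotic genes often hold a cell cycle homology region (CHR), bound by the DREAM complex, next to CCAAT boxes bound by NF-Y. The promoters of Cdk1, Ube2c, Top2a and Ccnb2, which were among the most changed mitosis genes, are shown because each holds both motifs in the window from 250 bases before to 50 after the annotated start. Those of Cdca8 and Mki67 also hold both and are not shown. The promoter of Ccnb1, whose log2 fold change was above those of Ccnb2 and Top2a, holds 2 CCAAT boxes and no TTTGAA. Only this form of the CHR was searched for, so other forms are not covered. They are the RefSeq sequences of build GRCm38.p6 at chr10:69352863-69353162 (minus strand), chr2:164769679-164769978 (plus strand), chr11:99024140-99024439 (minus strand) and chr9:70421505-70421804 (minus strand). Capitals mark TTTGAA and CCAAT on either strand, so that TTCAAA and ATTGG are also in capitals, and CCAATTGG in Ube2c is a pair of overlapping CCAAT matches.
Cdk1: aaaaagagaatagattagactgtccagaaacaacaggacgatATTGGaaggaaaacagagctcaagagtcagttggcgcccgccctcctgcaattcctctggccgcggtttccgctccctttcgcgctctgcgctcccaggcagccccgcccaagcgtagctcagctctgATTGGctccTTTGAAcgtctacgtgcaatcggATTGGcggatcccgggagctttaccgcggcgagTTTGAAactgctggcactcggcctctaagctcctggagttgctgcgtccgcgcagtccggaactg
Ube2c: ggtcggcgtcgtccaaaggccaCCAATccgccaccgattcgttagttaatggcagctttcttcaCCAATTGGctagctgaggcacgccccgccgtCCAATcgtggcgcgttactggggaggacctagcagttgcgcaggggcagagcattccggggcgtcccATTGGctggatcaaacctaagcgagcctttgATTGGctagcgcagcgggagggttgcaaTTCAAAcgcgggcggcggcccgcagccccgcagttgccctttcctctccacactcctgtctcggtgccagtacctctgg
Top2a: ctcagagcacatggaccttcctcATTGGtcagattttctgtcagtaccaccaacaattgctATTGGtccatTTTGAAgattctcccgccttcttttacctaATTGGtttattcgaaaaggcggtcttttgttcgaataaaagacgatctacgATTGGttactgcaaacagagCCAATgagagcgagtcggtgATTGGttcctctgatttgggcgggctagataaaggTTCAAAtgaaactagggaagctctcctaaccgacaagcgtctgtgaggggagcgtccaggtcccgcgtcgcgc
Ccnb2: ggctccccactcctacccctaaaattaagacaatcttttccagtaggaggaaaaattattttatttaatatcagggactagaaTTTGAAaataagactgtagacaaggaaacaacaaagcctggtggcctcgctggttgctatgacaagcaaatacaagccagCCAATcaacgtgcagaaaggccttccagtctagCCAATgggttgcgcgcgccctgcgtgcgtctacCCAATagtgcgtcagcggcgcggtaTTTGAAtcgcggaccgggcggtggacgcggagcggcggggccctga

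TTTGAA was found in 31 of the 41 mitosis promoters in the RefSeq table (75.6%), in 4 of 31 replication promoters (12.9%) and in 1364 of the 11536 promoters of all genes tested (11.8%). CCAAT was found in 30 of 41 mitosis promoters (73.2%), 20 of 31 replication promoters (64.5%) and 38.7% of all. Both motifs together were in 25 of 41 mitosis promoters (61.0%) and 4.99% of all. The E2F motif GGCGGGAA was in none of the 41 mitosis promoters, in 7 of 31 replication promoters (22.6%) and in 3.91% of all. Over all genes called higher at 3m, 14.9% held TTTGAA, and over those called lower 11.7% did. The lists were drawn from known cell-cycle genes, so these shares describe the lists and do not depend on the ages compared. A match describes letters in a window and is not a measured binding site.

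Genes of DNA replication were also called higher at 3m, in 19 of 38 cases, with smaller changes. Rrm2, the small subunit of the reductase that makes deoxynucleotides, had 33.1, 27.2, 28.9, 35.3 and 28.4 TPM at 3m, against 11, 9.32 and 11.9 TPM at P60 (log2 fold change 1.43 ± 0.18, adjusted p = 3.84e-06). Mcm7, a subunit of the replicative helicase, had 29.8, 28.7, 27.8, 40.7 and 29 TPM at 3m, against 18.7, 16.1 and 17.4 TPM at P60 (log2 fold change 0.79 ± 0.13, adjusted p = 0.000273). For both the ages did not overlap, and for Mcm7 replicate 4 was far above the other 3m libraries. Dtl, which marks the licensing factor Cdt1 for destruction in S phase, averaged 3.72 ± 0.811 TPM at 3m and 1.19 ± 0.473 TPM at P60 (log2 fold change 1.12, adjusted p = 9.99e-05). None of the 38 was called lower, and their median log2 fold change was 0.52. Without P60 replicate 2 the count of 19 was 12, and it was between 13 and 18 without any other library. With the term for genes at 0 it was 2, and 0 when 12m replicate 3 was also left out.

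Of 25 cyclins, kinases and E2F or RB family regulators of the step from G1 to S phase, 11 were called higher and none lower, with a median of 0.40. Cyclin D2 (Ccnd2), the D-type cyclin of glial progenitors, had 297, 241, 252, 334 and 247 TPM at 3m, against 139, 158 and 135 TPM at P60 (log2 fold change 0.91 ± 0.18, adjusted p = 0.00178). Foxm1, the factor that activates mitotic genes, had 2.68, 6.27, 3.63, 3.74 and 3.45 TPM at 3m, against 1.27, 1.02 and 1.46 TPM at P60 (log2 fold change 1.11 ± 0.23, adjusted p = 0.00196), and both genes separated the ages. Cyclin E1 (Ccne1) averaged 6.88 ± 1.73 TPM at 3m and 3.35 ± 0.238 TPM at P60 (log2 fold change 0.83, adjusted p = 0.00617). Cyclin D1 (Ccnd1) missed the threshold at 18.1 ± 6.61 TPM at 3m and 11.4 ± 2.65 TPM at P60 (log2 fold change 0.58, adjusted p = 0.0571). The count of 11 was 7 without 3m replicate 4, and 6, 4 and 6 without P60 replicates 1, 2 and 3. The calls of Ccnd2, Foxm1 and Ccne1 were kept without each library but lost with the term for genes at 0 (adjusted p = 0.12 for Ccnd2, adjusted p = 0.126 for Foxm1 and adjusted p = 0.167 for Ccne1). That term left no gene of the list called, and the terms for endothelial and fibroblast transcripts left 3.

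Among 16 tested genes of homologous recombination and fork repair, 2 were higher and none lower, with a median of 0.32, where 8.26% of all genes were higher. The count was 1 without P60 replicate 1 or P60 replicate 2, and 0 with the term for genes at 0. None of 10 tested inhibitors of cyclin-dependent kinases and p53 genes was called by limma, and their median was 0.37. The smallest p among them was that of p57 (Cdkn1c), at 43.2 ± 13.1 TPM at 3m and 19.6 ± 1.74 TPM at P60 (log2 fold change 1.05, adjusted p = 0.108). The senescence marker p21 (Cdkn1a) averaged 39.4 ± 8.88 TPM at 3m and 27 ± 1.91 TPM at P60 (log2 fold change 0.50, adjusted p = 0.32).

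Among progenitor genes, Nrep, which encodes a small protein of growing neural tissue, had the largest rise of any gene that met the rule for named genes. It had 123, 113, 108, 95.6 and 105 TPM at 3m, against 15.2, 14.9 and 14.7 TPM at P60 (log2 fold change 2.78 ± 0.28, adjusted p = 2.29e-07), with very little spread at P60. Tenascin C, a matrix protein made by radial glia and immature astrocytes, had 33.1, 20.7, 26.3, 27.2 and 21.4 TPM at 3m, against 3.59, 4.07 and 3.61 TPM at P60 (log2 fold change 2.47 ± 0.40, adjusted p = 0.00016). In both genes the lowest 3m library was more than 5 times the highest P60 library. The hyaluronan receptor Cd44 averaged 11.1 ± 1.31 TPM at 3m and 5.41 ± 0.572 TPM at P60 (log2 fold change 0.91, adjusted p = 0.00301).

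The receptor Egfr, which drives division of glial progenitors, had 28, 32.3, 27.7, 28.7 and 22.1 TPM at 3m, against 15.7, 15.8 and 19 TPM at P60 (log2 fold change 0.69 ± 0.19, adjusted p = 0.0168). The ages did not overlap, but the call was lost without P60 replicate 1 (adjusted p = 0.0775) or P60 replicate 2 (adjusted p = 0.0764). Sox11, a factor of immature neurons and progenitors, averaged 3.6 ± 0.316 TPM at 3m and 1.98 ± 0.498 TPM at P60 (log2 fold change 0.64, adjusted p = 0.00504) and lost its call without P60 replicate 2 (adjusted p = 0.0698). Fabp7, the fatty acid binding protein of radial glia, was not called, at 2853 ± 2587 TPM at 3m and 736 ± 621 TPM at P60 (log2 fold change 1.67, adjusted p = 0.145). Its values at 3m ran from 573 to 5794 TPM, and 1 P60 library lay at 1453 TPM, so the ages overlapped. Of 20 progenitor genes, 9 were higher and none lower, with a median of 0.66, and without P60 replicate 2 the count was 4. With the term for genes at 0, Nrep was still called (log2 fold change 2.49, adjusted p = 0.00187) and Tnc was not (log2 fold change 1.06, adjusted p = 0.259). The Nrep call was lost with the term when 12m replicate 3 was left out (log2 fold change 3.17, adjusted p = 0.13).

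Further large rises belonged to no cell-cycle list. Aplnr, the receptor of the peptide apelin, had 7.27, 6.8, 2.27, 6.99 and 2.85 TPM at 3m, against 0.0672, 0.139 and 0.0292 TPM at P60 (log2 fold change 2.42 ± 0.29, adjusted p = 2.38e-06), so that it was near 0 in every P60 library. Ppic, the secretory pathway foldase cyclophilin C, had 78.2, 47.8, 72.6, 73 and 65.5 TPM at 3m, against 15.9, 15.3 and 16.2 TPM at P60 (log2 fold change 2.01 ± 0.42, adjusted p = 0.00263). Lypd2, which encodes a membrane-anchored protein of the Ly6 family, had 14.4, 3.9, 26.3, 14.1 and 24 TPM at 3m, against 3.69, 2.45 and 2 TPM at P60 (log2 fold change 2.05 ± 0.63, adjusted p = 0.0362). Its 3m libraries varied widely and the second lay close to P60. The Lypd2 call was lost without 3m replicate 1, 3, 4 or 5 and without each P60 library. With terms for endothelial and fibroblast transcripts its change was gone (log2 fold change -0.08, adjusted p = 0.934), that of Ppic was no longer called (log2 fold change 0.89, adjusted p = 0.0833), and Aplnr kept its call (log2 fold change 2.55, adjusted p = 1.69e-05).

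The largest fall by log2 fold change was that of Etnppl. It had 17.8, 18.6, 31.7, 2.28 and 6.2 TPM at 3m, against 300.1, 307 and 316 TPM at P60 (log2 fold change -4.65 ± 0.85, adjusted p = 0.000906), and the highest 3m library was far under the lowest P60 library. Inmt, a methyltransferase of indole amines, had 12.9, 4.96, 8.8, 1.88 and 1.22 TPM at 3m, against 39.1, 55.8 and 78.3 TPM at P60 (log2 fold change -3.35 ± 0.78, adjusted p = 0.00687). Lgi1, a secreted organiser of synaptic protein complexes and an epilepsy gene, had 16.2, 10.3, 11.2, 18.2 and 5.2 TPM at 3m, against 63.6, 66.5 and 68.5 TPM at P60 (log2 fold change -2.45 ± 0.57, adjusted p = 0.00695). These 3 genes varied several-fold among 3m libraries and never overlapped with P60.

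The matrix phosphoprotein Dmp1, best known from bone and dentin, had 4.03, 7.06, 7.4, 1.6 and 2.95 TPM at 3m, against 22.7, 23.6 and 20.5 TPM at P60 (log2 fold change -2.18 ± 0.36, adjusted p = 0.000218). Xanthine dehydrogenase (Xdh), the last enzyme of purine breakdown in mice before urate oxidase, averaged 1.45 ± 0.237 TPM at 3m and 11.2 ± 2.16 TPM at P60 (log2 fold change -2.30, adjusted p = 0.00174). Rpe65, the retinoid isomerase of the eye, had 24.7, 17.2, 15.9, 1.19 and 0.54 TPM at 3m, against 37.5, 48.2 and 60.4 TPM at P60 (log2 fold change -2.67 ± 0.81, adjusted p = 0.0347). Replicates 4 and 5 of 3m were near 1 TPM while the other 3 were above 15, and the Rpe65 call was lost without 3m replicate 4 or 5 and without each P60 library. Cytl1, a small secreted protein, averaged 0.763 ± 0.238 TPM at 3m and 5.79 ± 2.85 TPM at P60 (log2 fold change -1.85, adjusted p = 0.00846), and the cadherin Cdh19 averaged 9.38 ± 5.7 TPM at 3m and 30.9 ± 9.98 TPM at P60 (log2 fold change -1.74, adjusted p = 0.00917). Cytl1 lost its call without P60 replicate 1 (adjusted p = 0.0638) or P60 replicate 2 (adjusted p = 0.0561), and Cdh19 without P60 replicate 2 (adjusted p = 0.0708). The term for genes at 0 ended the calls of Etnppl (log2 fold change -2.68, adjusted p = 0.256), Inmt (log2 fold change -3.03, adjusted p = 0.195) and Dmp1 (log2 fold change -1.10, adjusted p = 0.227) but not that of Lgi1 (log2 fold change -3.49, adjusted p = 0.0199), which was lost when 12m replicate 3 was also left out (log2 fold change -3.69, adjusted p = 0.53).

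Another 4 genes that were lower at 3m were chosen after their values were seen. Cyp4f15, a cytochrome P450 of the family that hydroxylates fatty acids, had 107, 104, 127, 84.2 and 85.5 TPM at 3m, against 250.5, 248 and 262 TPM at P60 (log2 fold change -1.33 ± 0.15, adjusted p = 6.27e-07). Gstm1, an abundant glutathione transferase, had 2437, 1945, 2117, 1636 and 2005 TPM at 3m, against 5050, 4310 and 4425 TPM at P60 (log2 fold change -1.19 ± 0.19, adjusted p = 0.00012). Both separated the ages with a gap wider than the range within either age. Cyp2d22, another cytochrome P450, averaged 63.9 ± 22.2 TPM at 3m and 186 ± 9.75 TPM at P60 (log2 fold change -1.61, adjusted p = 1.05e-05), and Itih3, a hyaluronan-binding inhibitor chain, averaged 125 ± 39 TPM at 3m and 295 ± 28 TPM at P60 (log2 fold change -1.28, adjusted p = 0.000221). The calls of all 4 were kept without each library of the 2 ages and with the term for genes at 0. With the term and without 12m replicate 3 none was called (adjusted p = 0.591 for Cyp4f15, adjusted p = 0.586 for Gstm1, adjusted p = 0.422 for Cyp2d22 and adjusted p = 0.939 for Itih3).

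**Figure D2:**
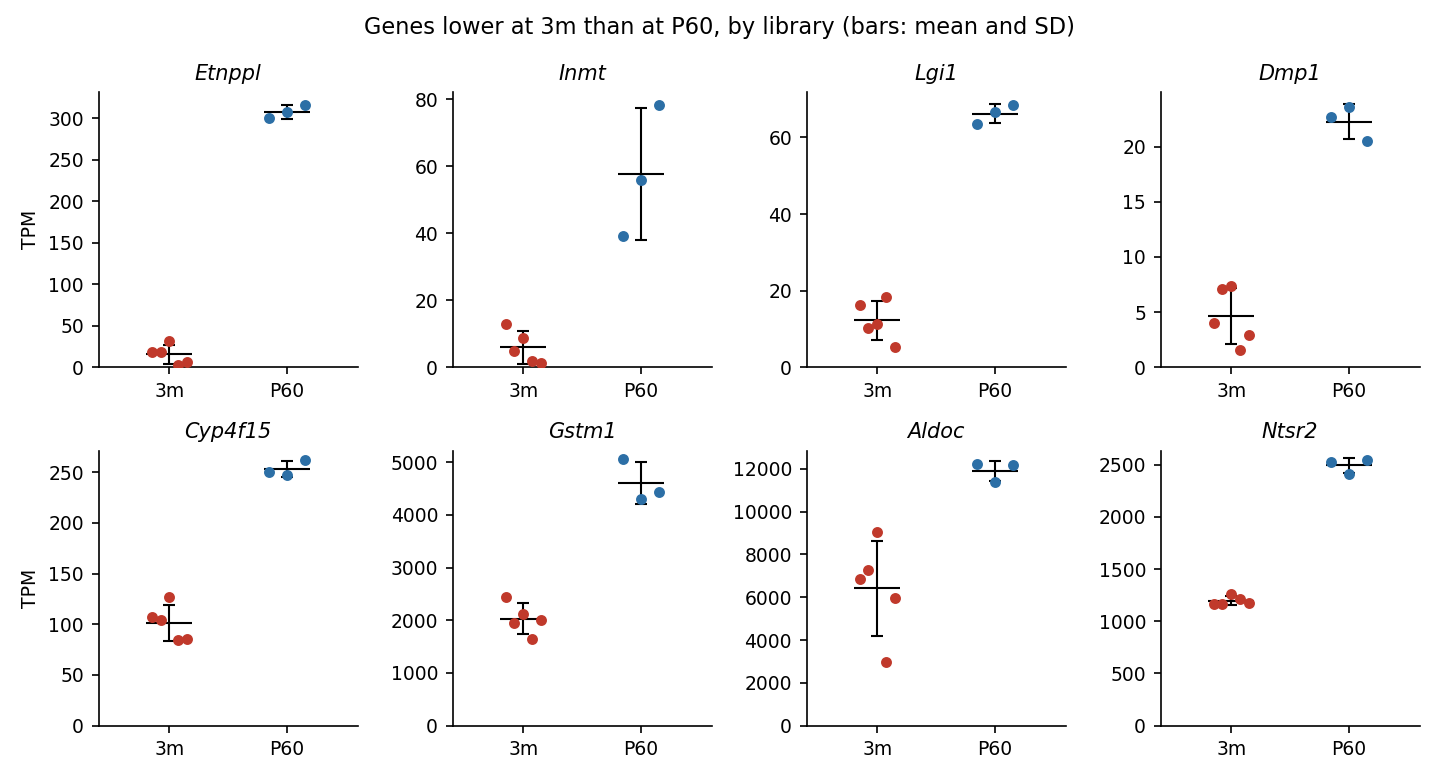
TPM of 8 genes that were lower at 3m, 1 panel per gene, each point 1 library (3m, n = 5, left; P60, n = 3, right), with bars at the mean ± SD. The 3m libraries lie below all P60 libraries in every panel, with a narrow spread at 3m for Ntsr2 and a wide one for Aldoc. The spread of Etnppl at 3m is wide only relative to its low mean at that age.

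The 25 markers did not move together. Among them 8 were called lower at 3m and 4 higher, with a median of -0.05. Ntsr2, a neurotensin receptor that is largely astrocytic in the cortex, had 1169, 1167, 1263, 1212 and 1171 TPM at 3m, against 2525, 2414 and 2546 TPM at P60 (log2 fold change -1.06 ± 0.21, adjusted p = 0.00136). Aldolase C (Aldoc), the brain form of a glycolytic enzyme, had 6857, 7261, 9024, 2968 and 5959 TPM at 3m, against 12210, 11380 and 12160 TPM at P60 (log2 fold change -0.98 ± 0.28, adjusted p = 0.0241). Glutamine synthetase (Glul), which turns glutamate into glutamine, had 1520, 1913, 2167, 1341 and 1865 TPM at 3m, against 2437, 2671 and 2734 TPM at P60 (log2 fold change -0.59 ± 0.18, adjusted p = 0.0375). The 3 genes did not overlap between ages, but only Ntsr2 kept its call without each library. Aldoc lost it without 3m replicate 4, the lowest library (adjusted p = 0.0694), and without each P60 library. Glul lost it without 3m replicate 1 or 4 and without each P60 library.

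In the other direction, the water channel Aqp4 of perivascular endfeet had 718, 759, 736, 712 and 657 TPM at 3m, against 361, 409.8 and 377 TPM at P60 (log2 fold change 0.90 ± 0.18, adjusted p = 0.00128). The intermediate filament Gfap, which rises in reactive and white matter astrocytes, had 686, 432, 899, 685 and 990.5 TPM at 3m, against 317, 359 and 203 TPM at P60 (log2 fold change 1.31 ± 0.33, adjusted p = 0.0123). Aqp4 was steady within each age, and for Gfap the lowest 3m library was 432 TPM and the highest P60 library 359 TPM. Gfap lost its call without P60 replicate 3 (log2 fold change 1.07, adjusted p = 0.094). The gap junction gene Gja1 averaged 2353 ± 328 TPM at 3m and 1989 ± 192 TPM at P60, Sox9, a factor of glial identity, 136 ± 12.8 TPM at 3m and 121 ± 3.32 TPM at P60, and apolipoprotein E (Apoe), the main lipid carrier made by astrocytes, 44530 ± 1875 TPM at 3m and 58720 ± 9514 TPM at P60. None of the 3 was called (adjusted p = 0.423 for Gja1, adjusted p = 0.642 for Sox9 and adjusted p = 0.0728 for Apoe). The 8 lower calls became 4 without 3m replicate 4, P60 replicate 1 or P60 replicate 2, and 3 without P60 replicate 3, and the 4 higher calls became 2 without 3m replicate 4, P60 replicate 1 or P60 replicate 3. With the term for genes at 0 no marker was called in either direction, and Aqp4 had a log2 fold change 0.54, adjusted p = 0.284.

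Of 17 secreted factors that act on synapses, 3 were higher and none lower, with a median of 0.38. Thrombospondin 4 (Thbs4), which promotes synapse formation, had 32.3, 41.8, 51.9, 41.1 and 39 TPM at 3m, against 22.4, 19.9 and 19.4 TPM at P60 (log2 fold change 0.95 ± 0.22, adjusted p = 0.00458), with all 3m libraries above P60. Glypican 4 (Gpc4), which recruits AMPA receptors, averaged 23.5 ± 3.6 TPM at 3m and 14 ± 3.34 TPM at P60 (log2 fold change 0.72, adjusted p = 0.00563), and Tgfb3, a TGF-beta ligand, averaged 6.37 ± 0.57 TPM at 3m and 4.04 ± 0.974 TPM at P60 (log2 fold change 0.56, adjusted p = 0.00828). Gpc4 lost its call without P60 replicate 3, and Tgfb3 without P60 replicate 1 or 3. The count of 3 became 1 without P60 replicate 3. With the term for genes at 0 it was 0, and Thbs4 had an adjusted p = 0.12 in limma.

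Of 12 tested matrix genes, 3 were higher and 1 lower, with a median of 0.34. Hapln1, which links hyaluronan to proteoglycans of perineuronal nets, averaged 99.8 ± 31.2 TPM at 3m and 47.8 ± 4.18 TPM at P60 (log2 fold change 0.99, adjusted p = 0.00414) and kept its call without each library. Hapln2, a link protein of nodes of Ranvier made by oligodendrocytes, averaged 0.483 ± 0.281 TPM at 3m and 4.17 ± 3.08 TPM at P60 (log2 fold change -1.67, adjusted p = 0.0136), lower in all 3m libraries, and lost its call without P60 replicate 3 (adjusted p = 0.125). Among 17 genes of FGF and ERK signalling, 3 were higher and none lower, with a median of 0.15, and the count was 1 without P60 replicate 1. Besides Egfr these were Spred1 and Spry1, inhibitors induced by ERK signalling. Spred1 averaged 38.3 ± 3.21 TPM at 3m and 20.9 ± 3.46 TPM at P60 (log2 fold change 0.85, adjusted p = 0.000692) and kept its call without each library. Spry1 averaged 31.9 ± 5.47 TPM at 3m and 13.2 ± 5.93 TPM at P60 (log2 fold change 1.30, adjusted p = 0.00543) and lost it without P60 replicate 1 (adjusted p = 0.084). With the term for genes at 0 no FGF or ERK gene was called in limma (adjusted p = 0.101 for Spred1). Of the matrix genes 1 was called with it, Hapln1 (adjusted p = 0.00978).

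The other signalling lists held few calls, where 8.26% of all genes tested were called higher and 1.93% lower. The Notch ligand Jag2 was 1 of 20 Notch genes called, higher at 5.42 ± 1.19 TPM at 3m and 2.56 ± 0.651 TPM at P60 (log2 fold change 0.85, adjusted p = 0.0332). Of 18 tested genes of BMP signalling and Id factors, 2 were higher, the receptor Bmpr1a (log2 fold change 0.53, adjusted p = 0.024) and the signal transducer Smad1 (log2 fold change 0.45, adjusted p = 0.0487). Of 9 tested hedgehog genes, the receptor component Smo (log2 fold change 0.50, adjusted p = 0.0437) and the co-receptor Gas1 (log2 fold change 0.47, adjusted p = 0.0453) were higher and the target Gli1 (log2 fold change -0.52, adjusted p = 0.0369) was lower. Each of these 6 calls had an adjusted p above 0.02, and each was lost without at least 4 of the 8 libraries in turn. After median-of-ratios rescaling no Notch gene was higher and 1 was lower, and no hedgehog gene was higher after either rescaling.

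Of 24 tested genes of cholesterol synthesis and its control, 6 were higher at 3m and none lower, with a median of 0.38. Hmgcs1, which makes the substrate of the rate-limiting reductase, had 333, 331, 281, 174 and 212 TPM at 3m, against 126, 154 and 149.6 TPM at P60 (log2 fold change 0.85 ± 0.18, adjusted p = 0.00286). The isomerase Idi1 averaged 172 ± 36.3 TPM at 3m and 98.2 ± 13 TPM at P60 (log2 fold change 0.79, adjusted p = 0.00269), and the sterol carrier Stard4 averaged 7.08 ± 1.19 TPM at 3m and 2.9 ± 0.665 TPM at P60 (log2 fold change 1.05, adjusted p = 0.000687). For Hmgcs1 the ages did not overlap, and 3m replicates 4 and 5 were nearest to P60. The count was 3 without P60 replicate 1 or P60 replicate 2 and 9 without 3m replicate 4. The 3 named calls were kept without each library. With the term for genes at 0 the count was 3. Idi1 (adjusted p = 0.0126) and Stard4 (adjusted p = 0.0451) were then still called in limma, and Hmgcs1 (adjusted p = 0.0803) was not.

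Glycolytic genes were called in both directions. Of 24, 6 were lower and 2 higher, with a median of -0.12. The 2 subunits of lactate dehydrogenase moved in opposite directions. Ldhb, the form that favours use of lactate, had 2107, 2131, 2230, 1639 and 1972 TPM at 3m, against 2808, 2817 and 3036 TPM at P60 (log2 fold change -0.53 ± 0.10, adjusted p = 0.00131), whereas Ldha, the form that favours making it, had 481, 505, 575, 609 and 606 TPM at 3m, against 369, 344 and 361 TPM at P60 (log2 fold change 0.63 ± 0.15, adjusted p = 0.00639). Neither overlapped between ages. Gapdh averaged 3039 ± 247 TPM at 3m and 4297 ± 324 TPM at P60 (log2 fold change -0.50, adjusted p = 0.00259). After median-of-ratios rescaling Ldha was not called (adjusted p = 0.119), and after quantile normalization Gapdh was not (adjusted p = 0.0726). The 6 lower calls became 3 without P60 replicate 3, and the 2 higher calls became 1 without 3m replicate 4, P60 replicate 1 or P60 replicate 3.

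Of 24 genes of fatty acid oxidation and ketone use, 4 were lower by less than a factor of 1.5 and none was higher, with a median of -0.02. These included the isomerase Eci1 (log2 fold change -0.33, adjusted p = 0.00331), the thiolase Acaa2 (log2 fold change -0.36, adjusted p = 0.00581) and the electron carrier Etfb (log2 fold change -0.29, adjusted p = 0.00956). The count was 2 without P60 replicate 2, 1 without P60 replicate 3 and 7 after median-of-ratios rescaling. Of 37 nuclear-encoded respiratory chain genes, 1 was lower, the complex I subunit Ndufb10 (log2 fold change -0.27, adjusted p = 0.0254), and it lost its call without 3m replicate 4, P60 replicate 1 or P60 replicate 3. After median-of-ratios rescaling 3 respiratory chain genes were lower, and after quantile normalization 4. None of 35 ribosomal protein genes was called, and their median of 0.14 was near the 0.12 of all genes.

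Of 26 chaperones and genes of the unfolded protein response, 11 were higher and 2 lower, with a median of 0.34. The chaperone of the endoplasmic reticulum Hspa5 had 337, 351, 537, 1070 and 616 TPM at 3m, against 246, 294 and 286 TPM at P60 (log2 fold change 0.95 ± 0.24, adjusted p = 0.0105). Calreticulin (Calr), a lectin chaperone of the same compartment, had 319.6, 326, 375, 732 and 555 TPM at 3m, against 235, 255 and 228 TPM at P60 (log2 fold change 0.87 ± 0.17, adjusted p = 0.00174). The cytosolic chaperone Hspa8 averaged 1526 ± 591 TPM at 3m and 838 ± 146 TPM at P60 (log2 fold change 0.80, adjusted p = 0.0102). Replicate 4 was the highest 3m library for both Hspa5 and Calr, and replicates 1 and 2 were the nearest to P60. The count of 11 was 4 without 3m replicate 4, 6 without 3m replicate 5, 1 without P60 replicate 1, and 4 without P60 replicate 2 or P60 replicate 3. Both lower calls were lost without 3m replicate 2, 3m replicate 4 or each P60 library, and 1 was left without 3m replicate 1 or 5. After median-of-ratios rescaling 4 of the list were higher and 3 lower. With the term for genes at 0, 1 was higher and none lower. Hspa5, Calr and Hspa8 were then not called in limma (adjusted p = 0.169 for Hspa5, adjusted p = 0.257 for Calr and adjusted p = 0.0721 for Hspa8).

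Of 20 clock genes, Arntl (log2 fold change 0.68, adjusted p = 0.0378) and Clock (log2 fold change 0.59, adjusted p = 0.0389), the partners of the activating complex, were called higher, while the median of the list was -0.18. Over all genes tested, 8.26% were called higher. After median-of-ratios rescaling, and likewise after quantile normalization, no clock gene was higher and 4 were lower. Neither call was left without 3m replicate 3, 4 or 5 or without each P60 library, and 1 was left without 3m replicate 2. None of 22 tested immediate early genes, which rise within minutes of activity or tissue handling, was called in limma. The smallest p among them was that of Ier5, at 13.5 ± 2.1 TPM at 3m and 10.4 ± 1.55 TPM at P60 (log2 fold change 0.34, adjusted p = 0.179).

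Within antigen presentation on MHC class I, 3 of 14 tested genes were lower and 2 higher, with a median of -0.24. The class I heavy chain H2-K1 had 184, 179, 171, 200 and 175 TPM at 3m, against 271, 334 and 300.3 TPM at P60 (log2 fold change -0.72 ± 0.15, adjusted p = 0.00217). The immunoproteasome subunit Psmb8 averaged 19.8 ± 1.14 TPM at 3m and 36.2 ± 6.99 TPM at P60 (log2 fold change -0.82, adjusted p = 0.00846). The genes called higher were Calr, given above, and Pdia3 (log2 fold change 0.59, adjusted p = 0.00687), chaperones that also fold many other proteins. H2-K1 kept its call without each library and with the term for genes at 0 (log2 fold change -0.81, adjusted p = 0.0456), but not with that term and without 12m replicate 3 (log2 fold change -0.29, adjusted p = 0.962), and Psmb8 lost its call without P60 replicate 2 (adjusted p = 0.0785). With terms for endothelial and fibroblast transcripts 5 genes of the list were lower and 1 higher, beside 336 lower and 366 higher of all 14590 tested.

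Over all genes tested, 8.26% were called higher and 1.93% lower. Of 26 interferon-stimulated genes, 2 were lower and none higher, with a median of -0.11. These were Ifi27 (log2 fold change -0.80, adjusted p = 0.004), which lost its call without P60 replicate 2, and Lgals3bp (log2 fold change -0.59, adjusted p = 0.0365), which lost it without 3m replicates 3, 4 or 5 and without each P60 library. With terms for endothelial and fibroblast transcripts 7 interferon-stimulated genes were lower, with a median of -0.62. Of all 14590 genes tested, 336 were lower with these terms. Of 13 genes shared by reactive astrocytes, Gfap and Cd44 were the 2 called, both higher. Of 12 tested genes of neuroinflammatory reactive astrocytes, Psmb8 and complement C3 were the 2 called, both lower, C3 at 0.631 ± 0.283 TPM at 3m and 2.77 ± 2.02 TPM at P60 (log2 fold change -1.10, adjusted p = 0.0194) with its call lost without P60 replicate 1 (adjusted p = 0.211). With the same terms 6 of the 12 were lower, with a median of -0.58. Among 11 phagocytosis genes, the bridging ligand Mfge8 was lower (log2 fold change -0.46, adjusted p = 0.00639) and the engulfment adaptor Gulp1 higher (log2 fold change 0.52, adjusted p = 0.0141), and without P60 replicate 3 neither was called. Gulp1 also lost its call without P60 replicate 1.

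**Figure D3:**
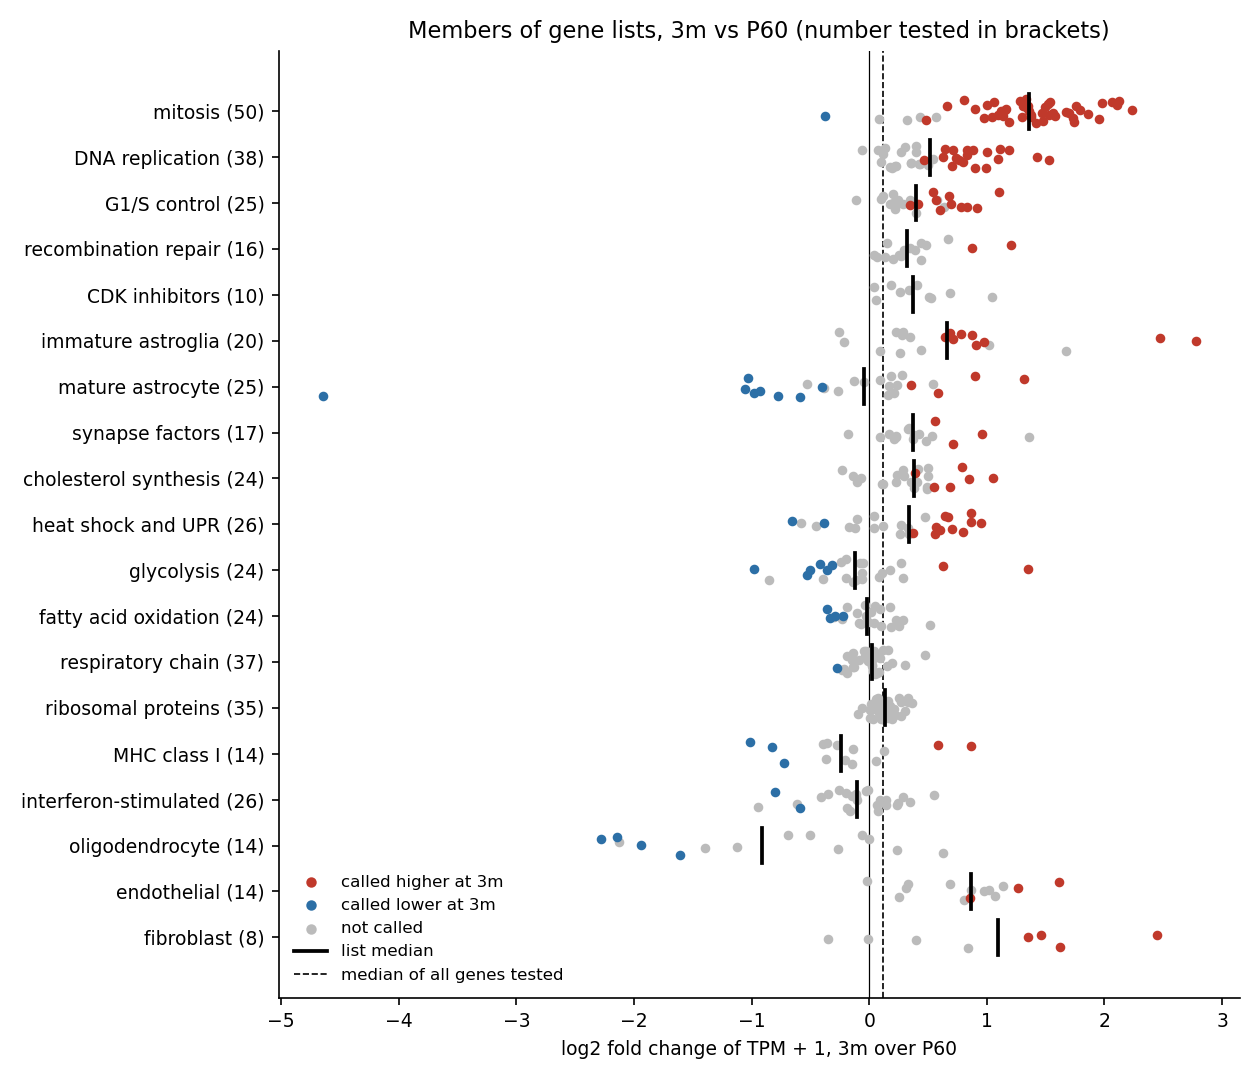
Log2 fold changes on the log2(TPM + 1) scale, 3m minus P60, for the genes of the lists described, 1 row per list and 1 point per gene, with the list median marked. The mitosis row has the highest median, 1.356, beside 0.12 for all genes tested.

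Among marker lists of other brain cells, those of fibroblasts and endothelium held some genes called higher at 3m and that of oligodendrocytes some called lower. The part of these transcripts in the other results was not tested beyond the model terms given with them. In bulk samples, fewer cells of a type and less RNA per cell cannot be told apart. Of 8 fibroblast genes, 4 were higher and none lower, with a median of 1.10. Collagen III (Col3a1) had 16.8, 10.9, 26.9, 24.3 and 24.5 TPM at 3m, against 2.76, 2.92 and 2.74 TPM at P60 (log2 fold change 2.45 ± 0.34, adjusted p = 1.9e-05), and collagens Col1a1 and Col1a2 averaged 10.2 ± 2.19 TPM at 3m and 3.33 ± 0.105 TPM at P60 (log2 fold change 1.35, adjusted p = 0.000401) and 41.5 ± 10.5 TPM at 3m and 14.1 ± 0.639 TPM at P60 (log2 fold change 1.46, adjusted p = 0.000684). The summed level of the fibroblast list was 337 to 834 TPM at 3m and 252 to 320 TPM at P60, and 4 to 5 genes were called without each library. With the term for genes at 0 the count was 1, and neither Col1a1 (log2 fold change 0.68, adjusted p = 0.286) nor Col1a2 (log2 fold change 0.96, adjusted p = 0.197) was called.

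Of 14 endothelial genes, 3 were higher and none lower, with a median of 0.86, and their sum was 1156 to 1521 TPM at 3m and 864 to 1337 TPM at P60. The sums overlapped, but the mean log2(TPM + 1) of the list did not, at 5.07 to 5.55 at 3m and 4.19 to 4.91 at P60. The VEGF receptor Kdr had 16.8, 14.4, 10.2, 13.3 and 11.5 TPM at 3m, against 2.89, 3.3 and 4.73 TPM at P60 (log2 fold change 1.62 ± 0.45, adjusted p = 0.0211). The angiopoietin receptor Tek averaged 18.9 ± 3.55 TPM at 3m and 7.32 ± 1.95 TPM at P60 (log2 fold change 1.26, adjusted p = 0.0367), and VE-cadherin (Cdh5) averaged 4.26 ± 0.881 TPM at 3m and 1.89 ± 0.438 TPM at P60 (log2 fold change 0.86, adjusted p = 0.0333). The 3 genes were higher in every 3m library. No endothelial gene was called without P60 replicate 1 or P60 replicate 2, and 1 was called without 3m replicate 1, 3m replicate 4 or P60 replicate 3. The count of 3 was 1 after median-of-ratios rescaling and 0 with the term for genes at 0. The basement membrane collagen Col4a1, singled out after its values were seen, averaged 30.8 ± 8.59 TPM at 3m and 8.5 ± 0.478 TPM at P60 (log2 fold change 1.70, adjusted p = 0.00507).

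Of 14 oligodendrocyte genes, 4 were lower and none higher, with a median of -0.91. The myelin protein gene Mog had 5.9, 5.79, 2.49, 0.0614 and 0.346 TPM at 3m, against 12, 12.1 and 16.8 TPM at P60 (log2 fold change -2.28 ± 0.72, adjusted p = 0.0403). Mag, Opalin and Ermn, also of myelin-forming cells, averaged 4.81 ± 3.98 TPM at 3m and 19.2 ± 5.19 TPM at P60, 1.39 ± 1.64 TPM at 3m and 6.82 ± 2.38 TPM at P60 and 1.27 ± 1.01 TPM at 3m and 5.53 ± 2.13 TPM at P60 (adjusted p = 0.0406 for Mag, adjusted p = 0.0469 for Opalin and adjusted p = 0.039 for Ermn). The 3m libraries ranged widely, with replicates 4 and 5 near 0 for Mog, replicate 3 at 2.49 TPM, and replicates 1 and 2 closer to P60. The summed level of the list was 393 to 2190 TPM at 3m and 1350 to 2527 TPM at P60, and overlapped. Its mean log2(TPM + 1) did not overlap, at 2.28 to 3.95 at 3m and 4.03 to 4.34 at P60. The count of 4 was 1 without 3m replicate 3, and 0 without 3m replicate 4, 3m replicate 5 or any P60 library, and 0 with the term for genes at 0. Of 10 genes of oligodendrocyte precursors, the sialidase Neu4 was called, lower (log2 fold change -1.58, adjusted p = 0.0408), and sums were 156 to 505 TPM at 3m and 197 to 337 TPM at P60. Neu4 lost its call without 3m replicate 1, 2, 3 or 5 and without each P60 library.

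As deposited, limma called no gene among 14 tested neuronal, 16 microglial, 12 pericyte and smooth muscle, 11 ependymal, 8 choroid plexus or 6 erythroid genes, and 2 of 9 tested genes of immature neurons were higher, Sox11 and the interneuron factor Dlx2 (log2 fold change 0.59, adjusted p = 0.0492). After median-of-ratios rescaling, and likewise after quantile normalization, 2 microglial genes were lower, and after the second also 1 choroid plexus gene. With terms for endothelial and fibroblast transcripts 4 pericyte and smooth muscle genes and 1 ependymal gene were lower, beside 336 of all 14590 genes tested. Summed neuronal transcripts were 153 to 595 TPM at 3m and 334 to 652 TPM at P60, microglial 164 to 298 TPM at 3m and 230 to 296 TPM at P60, pericyte and smooth muscle 2289 to 3055 TPM at 3m and 2749 to 5244 TPM at P60, ependymal 1135 to 3640 TPM at 3m and 1768 to 3844 TPM at P60, choroid plexus 26.3 to 185 TPM at 3m and 38.6 to 121 TPM at P60, and erythroid 4302 to 8865 TPM at 3m and 3529 to 9720 TPM at P60. All of these ranges overlapped. Those of immature neurons did not, at 459 to 624 TPM at 3m and 356 to 450 TPM at P60. On mean log2(TPM + 1) the immature neuron list did overlap, at 2.526 to 2.795 at 3m and 2.221 to 2.642 at P60. No marker gene of any of these lists was at 0 in all 8 libraries.

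**Figure D4:**
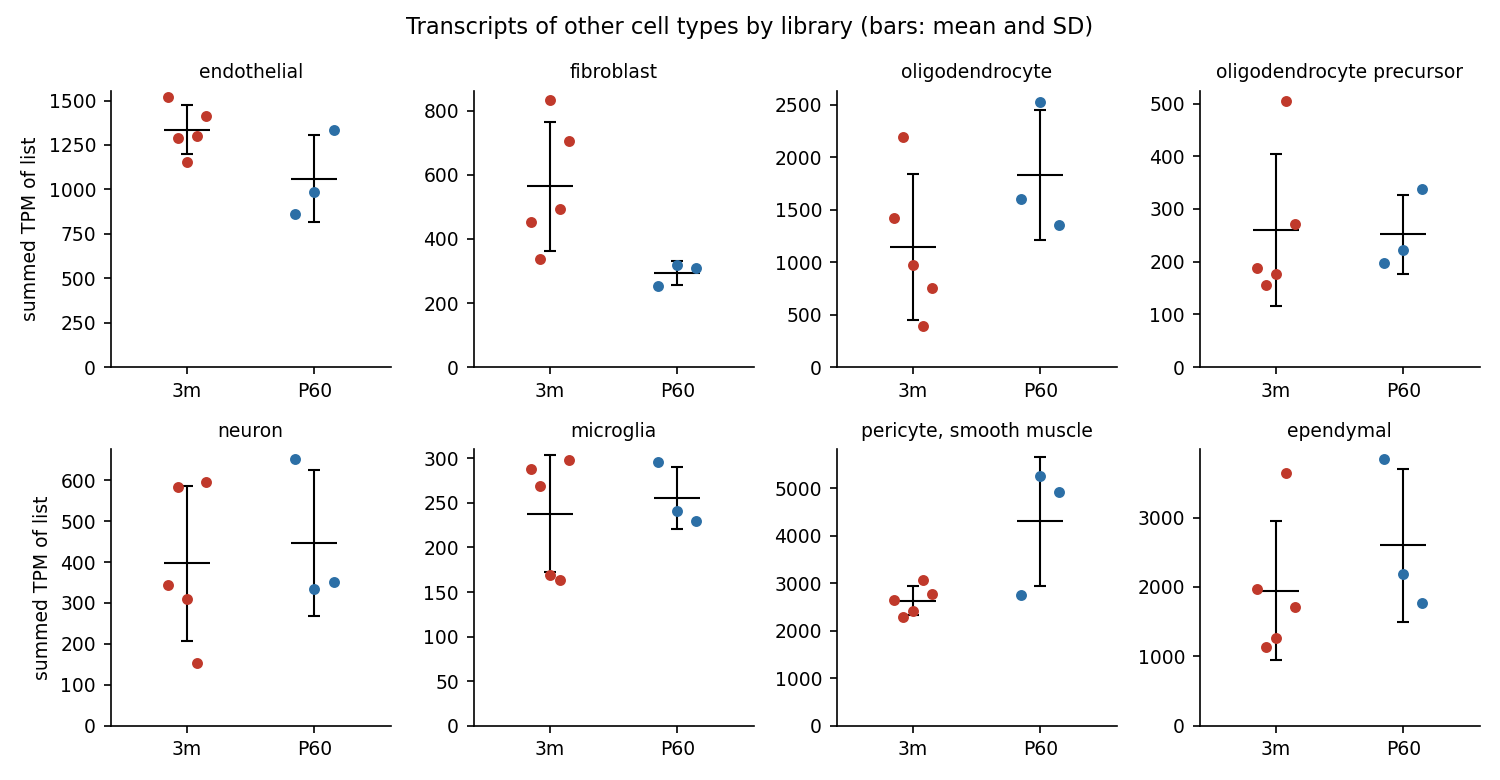
Summed TPM of marker lists of other brain cells, 1 panel per list, each point 1 library (3m, n = 5, left; P60, n = 3, right), with bars at the mean ± SD. Fibroblast transcripts were higher in every 3m library than in any P60 library, and the sums of the other 7 lists overlap between the ages. On mean log2(TPM + 1), not shown here, the endothelial and oligodendrocyte lists did not overlap.

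The level of fibroblast and endothelial transcripts was also given its own terms in the model, an alternative chosen after the data were seen. Both terms are list means of log2(TPM + 1), and neither overlaps between 3m and P60. Fibroblast means were 4.74 to 5.81 at 3m and 4.24 to 4.54 at P60. Endothelial means were 5.07 to 5.55 at 3m and 4.19 to 4.91 at P60. The slopes of the terms come from differences between libraries of the same age, and calls kept or lost depend on those. With these terms 366 genes were called higher and 336 lower, and the share of calls that were higher was 52.1%. Mitosis genes called higher numbered 37, with a median of 1.01, replication genes 4, and progenitor genes 3. Aurkb (log2 fold change 1.84, adjusted p = 6.2e-07), Cdk1 (log2 fold change 1.65, adjusted p = 0.00166), Nrep (log2 fold change 2.37, adjusted p = 4.49e-05), Tnc (log2 fold change 2.17, adjusted p = 0.00535), Etnppl (log2 fold change -3.92, adjusted p = 0.0241) and Gstm1 (log2 fold change -0.73, adjusted p = 0.0227) were still called. Ntsr2 (log2 fold change -0.75, adjusted p = 0.0614), Lgi1 (log2 fold change -2.47, adjusted p = 0.0552) and Gfap (log2 fold change 0.88, adjusted p = 0.197) were not. Which cells of the isolates held the mitotic transcripts was not tested, since no single-cell values were used.

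Levels at P28 and 6m place the pair among the other ages, and the contrasts of 6m share libraries with the comparison of 3m and P60. Cdk1 averaged 6.94 ± 0.629 TPM at P28, 5.21 ± 0.826 TPM at P60, 29.6 ± 12.2 TPM at 3m and 11.8 ± 5.92 TPM at 6m. Aurkb averaged 4.27 ± 0.451 TPM at P28, 2.97 ± 0.539 TPM at P60, 16.3 ± 2.07 TPM at 3m and 4.83 ± 0.774 TPM at 6m. Mitotic transcripts thus stood at a low level at P28 and P60, at a high one at 3m, and between these at 6m. The mean log2(TPM + 1) of the mitosis list was 3.27 at P7, 2.33 at P14, 1.95 at P21, 2.04 at P28, 1.81 at P60, 3.11 at 3m, 2.26 at 6m, 2.06 at 12m and 1.73 at 18m. The 3m value lay close to that of P7, when cortical astrocytes divide. From 3m to 6m, 40 of the 50 mitosis genes were called lower (7.25% of all genes tested), and for 6m against P60 9 were called higher (7.05% of all genes) and 1 lower (5.86%).

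Nrep averaged 28.9 ± 1.94 TPM at P28, 14.9 ± 0.252 TPM at P60, 109 ± 10.2 TPM at 3m and 46.7 ± 24.1 TPM at 6m, and Tnc 5.46 ± 0.668 TPM at P28, 3.76 ± 0.273 TPM at P60, 25.8 ± 5 TPM at 3m and 12.6 ± 7.08 TPM at 6m. Both varied widely within 6m. In limma they were lower at 6m than at 3m (adjusted p = 0.0014 for Nrep and adjusted p = 0.0366 for Tnc) and higher at 6m than at P60 (adjusted p = 0.00353 for Nrep and adjusted p = 0.0282 for Tnc). Etnppl averaged 185 ± 18.4 TPM at P28, 308 ± 8.1 TPM at P60, 15.3 ± 11.6 TPM at 3m and 104 ± 85.2 TPM at 6m, and Ntsr2 2782 ± 129 TPM at P28, 2495 ± 70.9 TPM at P60, 1196 ± 41.8 TPM at 3m and 2178 ± 701 TPM at 6m. For both genes 6m was higher than 3m (adjusted p = 0.026 for Etnppl and adjusted p = 0.00828 for Ntsr2) and not called against P60. Cyp4f15 averaged 270.2 ± 7.68 TPM at P28, 254 ± 7.91 TPM at P60, 102 ± 17.5 TPM at 3m and 226 ± 25.1 TPM at 6m, so that 3m was the lowest of these 4 ages. Gfap averaged 375 ± 103 TPM at P28, 293 ± 81 TPM at P60, 739 ± 217 TPM at 3m and 510.4 ± 201 TPM at 6m.

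**Figure D5:**
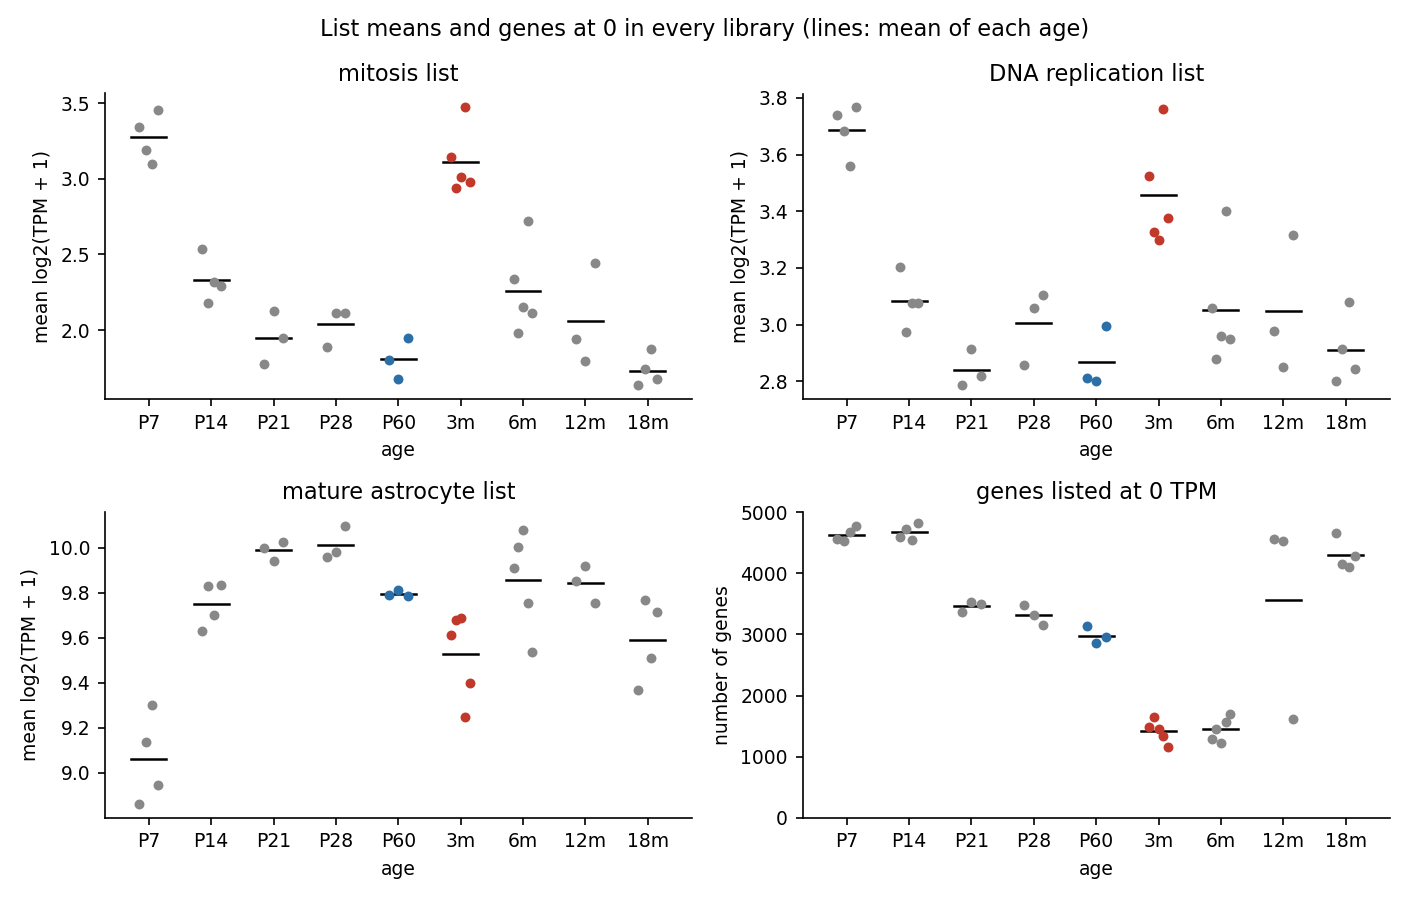
Values over the 9 ages in order, each point 1 library, for the mean log2(TPM + 1) of the mitosis, replication and mature astrocyte lists and for the number of genes at 0. Mitosis and replication are high at P7, low from P21 to P60 and high again at 3m, while the mean number of genes at 0 is lowest at 3m and 6m, and 1 library of 12m is as low.

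Exosc6, a subunit of the RNA exosome, was listed at 0 in all 5 libraries of 3m, against 7.79, 7.88 and 7.22 TPM at P60. It was the single gene with a mean of at least 5 TPM at one age and 0 in every library of the other, and it was also at 0 in all 6m libraries while P28 averaged 7.49 ± 3.68 TPM. In GENCODE it lies within the span of Aars, the alanyl-tRNA synthetase gene, on the same strand of chromosome 8, and Aars averaged 32.9 ± 1.11 TPM at 3m and 31.3 ± 2.99 TPM at P60 (adjusted p = 0.699). The value of a gene that overlaps another is uncertain, and an exact 0 here says only that the gene is listed at 0. No fold is given.

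Tmem254a had 10.9, 17.6, 13.6, 15.7 and 16.7 TPM at 3m, against 2.13, 3.67 and 3.31 TPM at P60 (log2 fold change 1.98 ± 0.37, adjusted p = 0.000797). Its copies Tmem254b and Tmem254c, looked at because of it, averaged 65.5 ± 13.9 TPM at 3m and 18.4 ± 2.05 TPM at P60 (log2 fold change 1.76, adjusted p = 2.36e-06) and 115 ± 21.3 TPM at 3m and 34.3 ± 5.4 TPM at P60 (log2 fold change 1.71, adjusted p = 4.74e-08). The 3 lie on chromosome 14 and are near-identical, so that the split of reads between them is uncertain. All 3 averaged less at P60 than at P28, 3m or 6m. Tmem254a averaged 15.5 ± 4.91 TPM at P28, 3.04 ± 0.807 TPM at P60, 14.9 ± 2.67 TPM at 3m and 6.74 ± 4.56 TPM at 6m, Tmem254b averaged 82 ± 2.47 TPM at P28 and 29.9 ± 5.93 TPM at 6m, and Tmem254c averaged 129.6 ± 3.98 TPM at P28 and 51.8 ± 4.31 TPM at 6m. Of the genes singled out after their values were seen, 2 more rose. Tmsb10, which sequesters actin, averaged 280.2 ± 72.6 TPM at 3m and 86.5 ± 15.8 TPM at P60 (log2 fold change 1.67, adjusted p = 0.00293). Marcksl1, a membrane-bound regulator of the actin cytoskeleton, averaged 164 ± 63.8 TPM at 3m and 44.8 ± 6.44 TPM at P60 (log2 fold change 1.78, adjusted p = 0.00331).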

How the data were processed

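RNA-seq values of 5 libraries of 3m and 3 of P60, out of 34, were used. The TPM were made and deposited by the authors in 1 table for the whole series. Build mm10 and the tools RSEM 1.2.28, STAR 2.7.1a, DESeq2 1.36.0 and Trim Galore 0.6.4 are given, with no role for each, per the submitters' processing notes. The table lists 20614 genes, 20613 with values, and 28 symbols are shared by several identifiers. A list gene was taken as the identifier with the highest mean TPM. TPM hold no read numbers, so depth is unknown and no counting interval is given.

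Values were taken as log2(TPM + 1), and a gene was tested where 3 or more libraries reached 1 TPM, which left 14590. limma 3.58.1 in R 4.3.3 (trend, robust, statmod 1.5.0) fitted 1 mean per age to all 34 libraries. P-values were adjusted by Benjamini-Hochberg over all genes tested, with calls under 0.05. The design, tests and alternatives are those of the closing section.

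The ages compared, the gene lists (37 lists, 705 genes) and the tests were chosen with earlier results of these data known. Named genes were the 12 largest rises and the 12 largest falls by log2 fold change among calls where the higher age averaged 5 TPM or more, with no overlap and no clone or predicted name. The 3 members of smallest p in each list and a fixed set of astrocyte, cell-cycle and Y-linked genes were added. Genes outside this rule are marked in the text. The called genes of the recombination list are not reported here. Positions of 149 named genes came from GENCODE M21. Promoters came from RefSeq. The fit was tested on simulated data. Libraries were not treated as paired by replicate number in the main fit. Deviations of same-numbered libraries correlated between -0.2 and 0.186, over too few pairs to show whether the numbers pair them. Python 3.11.15 with pandas 2.3.3 and matplotlib 3.10.9 drew the figures.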

Additional observations from a re-analysis of the deposited data

Results flagged for a closer look

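Within the 5 libraries of 3m, the highest or lowest value was tested for standing apart from the other 4, for 187 genes and list means, of which chance flags about 1 in 20. There were 12 such values, and 9 of them were in 3m replicate 4. In that library Top2a was 14.8 TPM, against 9.06 to 10.6 TPM in the other 4, Ccnb2 was 23.3 TPM against 7.42 to 9.10 TPM, and the helicase gene Mcm7 was 40.7 TPM against 27.8 to 29.8 TPM. Replicate 4 also stood apart in Tmem254b at 89.8 TPM, in the oligodendrocyte precursor gene Neu4 at 14.6 TPM, in the choroid plexus gene Clic6 at 3.43 TPM and in the cilium gene Cfap126 at 115.8 TPM. Its list mean of log2(TPM + 1) was 9.001 for the respiratory chain, below the other 4, and 4.32 for interferon-stimulated genes, above them. In 3m replicate 2, Spred1 was 43.9 TPM, against 36.3 to 38.1 TPM in the others. In 3m replicate 5, Ifit3 was 31.1 TPM against 57.1 to 59.6 TPM, and the haemoglobin gene Hbb-bt was 226.5 TPM against 515.8 to 529.8 TPM. Without replicate 4, 43 of the 50 mitosis genes were called higher. The part of that library's other transcripts in these values was not tested.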

How the results depend on the processing

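Main counts were 1487 genes called, 1205 higher and 282 lower. Array weights gave 3206, 2604 and 602, and a fold of at least 2 gave 304, 235 and 69. The term for genes at 0 gave 378 in all and 129 higher (5 in all, 2 higher and 3 lower, when 12m replicate 3 was also left out, with 1 mitosis gene and 0 replication genes higher), and the endothelial and fibroblast terms 702 and 366. Median-of-ratios rescaling gave 660 higher and 689 lower, and quantile normalization 660 lower. Leaving out 1 library gave 675 to 1272 in all, 551 to 1053 higher and 124 to 267 lower. Replication genes called higher were 19, but 5 at a fold of at least 2, 2 with the term for genes at 0, 4 with the endothelial and fibroblast terms, and 12 to 18 with a library left out. Mitosis genes higher were 45, but 22 with the term for genes at 0. With the replicate number as a block, 1584 genes were called, 1310 higher and 274 lower, with 45 mitosis and 17 replication genes higher. Adding 0.1 in place of 1, dropping the filter or raising it to 5 TPM, the fit of the 8 libraries alone, and neuron and oligodendrocyte terms kept these counts within 1.5 times. The cause of these differences was not tested. Of 95 genes that the naming rule or the text singled out and that were called, 27 were still called with the term for genes at 0, 2 with that term and without 12m replicate 3, and 50 with the endothelial and fibroblast terms. Some genes changed sign. With the term for genes at 0 the log2 fold change was -0.0829 for Exo1, -0.0635 for Trp53, -0.0620 for Gadd45a, 0.32 for Nr4a2, -0.0891 for Slc17a6, -0.13 for Ddx3y, -0.17 for Sox9, -0.35 for Cldn2 and -0.44 for Eif2s3y. With that term and without 12m replicate 3 it was -0.00187 for Aqp4, -0.11 for Calr, 0.0746 for Xdh, 1.45 for Inmt, -0.29 for Pdia3, -0.0642 for Bmpr1a, 0.19 for Rpe65, -0.93 for Arntl, -0.0572 for Gas1, -0.22 for Ccnd1, 0.12 for Amigo2, -3.41 for Fabp7, -0.0563 for Gadd45a, -0.0471 for Slc1a3, -0.0799 for Grin1, 0.18 for Rarres2, -0.081 for Slc17a6, -1.42 for Gad2, -0.24 for Gja1, 0.0345 for Cfap126, -0.18 for Sox9, -0.42 for Cldn2, -0.34 for Slc1a2 and -0.62 for Eif2s3y. With the endothelial and fibroblast terms it was -0.0792 for Lypd2, -0.11 for Cdkn1c, -0.0864 for Rgs5, -0.23 for Egr1, -0.14 for Ddx3y, -0.19 for Cldn2, -0.39 for Hbb-bs, -0.57 for Hbb-bt, -0.35 for Alas2 and -0.0034 for Eif2s3y. Median-of-ratios rescaling gave -0.0042 for Sox9, -0.0802 for Slc1a2 and -0.0893 for Eif2s3y, and quantile normalization -0.0118 for Eif2s3y. With a library left out, Slc1a2 lay between -0.0253 (without 3m replicate 2) and 0.202 (without 3m replicate 4), and Eif2s3y between -0.0425 (without P60 replicate 1) and 0.262 (without P60 replicate 3). Depth is unknown, and 3 libraries of P60 limit all estimates, since leaving out any 1 of them lost more calls than any other single library.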
